A study of Homo sapiens with 6 samples.

Results

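BMP and activin ligands and the ID genes were described with 10 genes: the ligand genes BMP2, BMP4, BMP7, INHBA, INHBB and GDF15, and the target genes ID1, ID2, ID3 and ID4. Their probes were taken by gene symbol alone, as every probe on the array that carries one of these symbols, which gave 13 of the 50599 probes. The study compared 3 control tumors with 3 tumors from mice given deferasirox (DFX), an iron chelator that patients take by mouth, at 200 mg/kg, and each tumor's RNA was labeled with Cy3 and hybridized to its own human array. All 6 tumors were subcutaneous xenografts of the human pancreatic adenocarcinoma line BxPC-3, injected with Matrigel into female BALB/c nu/nu mice that were 8 to 10 weeks old. Mice of both groups received gavage over 21 days once tumors had reached 150 mm3, either DFX suspended in saline on every second day or saline alone (the vehicle). Because the model is 1 cell line in hosts without T cells, and because the array was designed for human transcripts, signal from mouse stroma and vessels was recorded only as far as it cross-hybridized. In bulk tumor RNA, fewer cells of a type and less RNA per cell cannot be told apart.

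Bone morphogenetic proteins (BMPs) and activins are secreted dimers of the TGF-β superfamily. They bind pairs of receptor serine kinases, which phosphorylate SMAD1, SMAD5 and SMAD9 for BMPs and SMAD2 and SMAD3 for activins, and these SMADs enter the nucleus with the shared partner SMAD4, a gene that BxPC-3 cells are known to have lost. The ID genes are among the most direct BMP targets. Their products are helix-loop-helix proteins without a DNA-binding region that hold E proteins and related factors away from DNA, and in pancreatic cancer they have been studied for their part in growth and differentiation. Iron and BMP signaling are linked in the liver, where BMP6 induces the iron hormone hepcidin.

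All 6 arrays lay on 1 slide, controls in one row and DFX-treated tumors in the other, so row and treatment cannot be told apart. Correlations between arrays were 0.98 to 0.99, no spot was saturated, and 50.34% to 56.51% of probes were well above background. The 8 epithelial markers of the tumor cells (including KRT7, KRT19 and EPCAM) were well above background on all 6 arrays, and their summed log2 level was 19.34 to 19.37 in control tumors and 19.40 to 19.42 in DFX-treated tumors. KRT19 made up most of this sum, which was taken on the linear scale. It lay at the top of the quantile-normalized range, where arrays shared the same value (18.44 in control tumors 2 and 3 and DFX-treated tumor 1). EPCAM, KRT8 and KRT18 were the 3 of these 8 that passed the unadjusted test described next, all higher with DFX, against 4.45% of all tested genes. Each passed on its brightest probe only, and other probes of KRT8 (0.24 and -0.12) and KRT18 (0.15) did not pass. Among the other markers KRT7 was lower (-0.17) and the rest were higher by brightest probe. Whether a small shift in the epithelial share has a part in the results given here was not tested.

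Of the 10 genes, 9 passed the detection filter with 12 probes, each well above background on all 6 arrays. ID4 did not pass and was not tested with this filter. In limma, BMP7 and ID3 were the 2 of these 9 genes (22.2%) with a probe at an unadjusted p under 0.05, where 10.8% of all 22718 tested genes had one. Both were lower with DFX, where 6.4% of all tested genes had a lower call and 4.45% a higher one. By the brightest probe alone only ID3 passed, against 7.98% of all genes. At the level of probes, 2 of 12 (16.7%) passed, both lower, against 8.41% of all 31807 tested probes (4.95% lower and 3.46% higher). Counts this small leave the shares uncertain. No member passed once p-values were adjusted by Benjamini-Hochberg across the whole array, and the lowest adjusted p among them in limma was 0.546. The lowest adjusted p of any probe on the array was 0.0675, so no gene on it passed either. Of the 12 tested member probes, 3 (25%) had control and DFX groups that did not overlap, all 3 lower with DFX, against 15.5% of all tested probes in either direction, 9.15% lower and 6.34% higher. By the brightest probe of each gene, 6 members were lower and 3 higher, with a median log2 fold change of -0.10, against -0.01 over all genes. Fold changes here are differences of quantile-normalized log2 intensities, DFX minus control, and one probe's intensity cannot be set against another's.

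**Figure D1:**
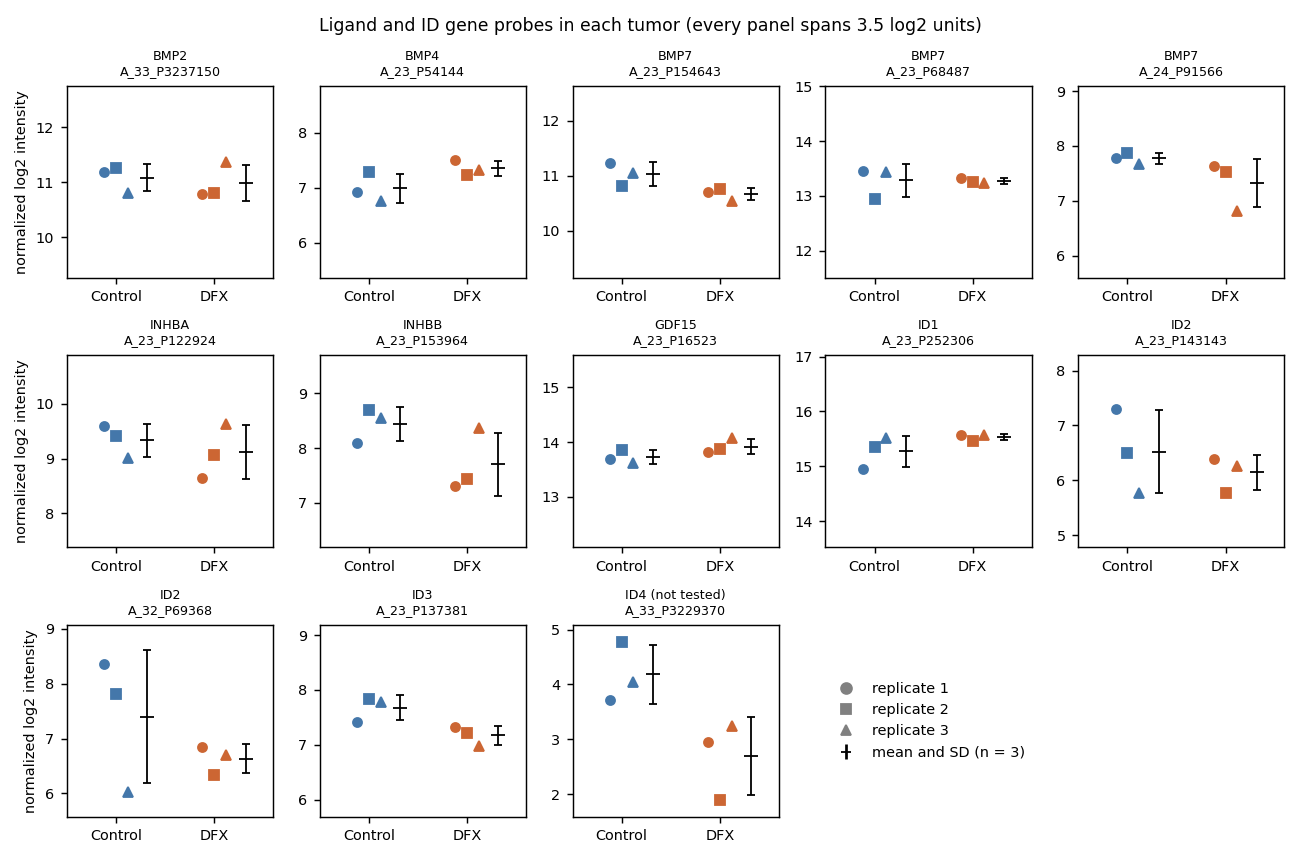
Quantile-normalized log2 intensity (vertical axis) of the 13 probes, 1 panel per probe, by group (horizontal axis). Marker shapes are replicates 1 to 3 of each group, the bars are group means with the SD, and all panels span the same log2 range. The ID3 points of the 2 groups are separate, whereas the ID2 control tumors spread over more than the whole DFX range.

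ID3 was the member with the smallest p. Its log2 intensity was 7.42, 7.84 and 7.77 in control tumors 1 to 3 and 7.32, 7.22 and 6.97 in DFX-treated tumors 1 to 3. Every DFX-treated tumor was below every control tumor, with a gap of 0.10 between the nearest pair. The control mean was 7.68 ± 0.23 (SD, n = 3) and the DFX mean 7.17 ± 0.18 (SD, n = 3), a limma log2 fold change of -0.51 (SE 0.16, 95% interval -0.90 to -0.11, unadjusted p = 0.0205, adjusted p = 0.546), a change of -29.6% on the linear scale. The exact two-sided permutation test gave p = 0.1, the smallest that 3 against 3 tumors allow. The call did not hold without control replicate 2 (log2 fold change -0.43), without control replicate 3 (-0.46) or without DFX replicate 3 (-0.41), and the value was -0.32 from the raw mean signal, where the call stood. ID3 is also expressed by endothelial cells and other stroma. The summed log2 level of 8 endothelial markers was 9.52 to 10.08 in control tumors and 9.40 to 9.49 in DFX-treated tumors, ranges that did not overlap but nearly met. The largest part of this sum, taken on the linear scale, was VWF, whose own groups overlapped and which did not pass (-0.58). Within that list TIE1 (-0.78) and ENG (-1.09), a BMP co-receptor of endothelium, were lower and PECAM1 was higher (1.27, and 1.64 on another probe). ENG was well above background on 3 control arrays but only 1 DFX array, so its value runs into background. The remaining PECAM1 probe was well above background on 0 control arrays and 1 DFX array, and was higher by a bound of at least 1.88-fold. CDH5 was -0.09, and KDR and EMCN were well above background on no array. TEK did not pass the detection filter. It was well above background on 0 control arrays and 2 DFX arrays, and 2 DFX-treated tumors read above every control tumor. The part of these cells in the ID3 result was not tested.

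The ID3 probe, shown because this call rests on it alone, lies on hg19 at chr1:23885666-23885725 on the minus strand, starting at base 560 of the transcript. It has an open reading frame over its full length and lies in the coding part.

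ID3 probe: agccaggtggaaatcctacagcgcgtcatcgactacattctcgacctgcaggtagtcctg

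ID1, the closest relative of ID3 among the targets, did not pass the test. Its log2 intensity was 14.96, 15.35 and 15.51 in control tumors and 15.57, 15.46 and 15.57 in DFX-treated tumors. DFX replicates 1 and 3 were above all controls and DFX replicate 2 lay between control replicates 2 and 3, so the groups overlapped. The limma log2 fold change was 0.26 (SE 0.16, 95% interval -0.14 to 0.66, adjusted p = 0.694). It was 0.10 without control replicate 1, the lowest tumor, and 0.38 without control replicate 3. An increase of up to 0.66 therefore lies within the interval, as does a small decrease. ID1 was the member with the least variation among DFX-treated tumors apart from the brightest BMP7 probe, with an SD of 0.06.

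ID1 and ID3 were also set against each other within each tumor, a comparison chosen after the data had been seen. The log2 difference ID1 minus ID3 was 7.54, 7.51 and 7.74 in control tumors and 8.25, 8.24 and 8.60 in DFX-treated tumors. Its size has no meaning between 2 probes, but its change between tumors does not depend on a constant factor applied to a whole array. Quantile normalization is not such a factor and can alter it. Every DFX-treated tumor had a larger difference than every control tumor, and the means differed by 0.77 (exact two-sided permutation test, p = 0.1, the smallest possible). Because ID3 had the smallest p of the members and ID1 had read higher, a wider difference was built into the choice of this pair. The separation and its p-value therefore describe these tumors and are not a test. The mean difference was 0.76 without normalization between arrays and 0.55 with the raw mean signal, again without overlap in either. The gap between the groups was 0.51 with normalization, 0.40 without it and 0.13 with the raw mean signal.

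**Figure D2:**
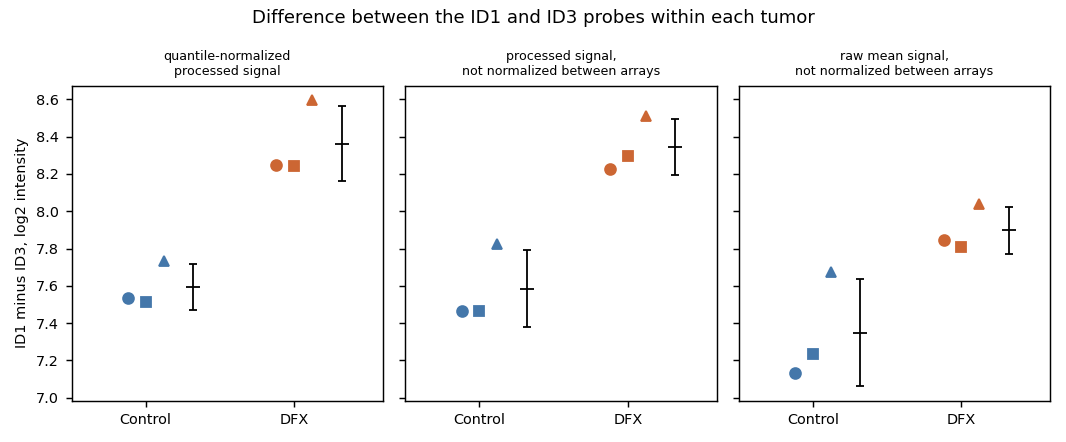
Log2 difference ID1 minus ID3 within each tumor (vertical axis) by group, in 3 panels for the normalized signal, the processed signal not normalized between arrays and the raw mean signal. Marker shapes are replicates 1 to 3 and bars are group means with the SD, and in the normalized signal the difference is 7.51 to 7.74 in control tumors and 8.24 to 8.60 in DFX-treated tumors.

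The first 250 bases upstream of the start of each of these genes were read from RefSeq promoter windows on GRCh38.p14. The windows of ID1 and ID3 are shown because these 2 genes were set against each other. All windows were searched on both strands for CAGAC (part of a SMAD-binding sequence), GGCGCC (a sequence bound by BMP SMADs) and ACGTG (the core of a hypoxia response element). There were 10 windows for 8 of the 10 genes, 3 of them for BMP4, which held each motif in at least 1 of its windows. Counted by window, CAGAC was in 5 of the 10 and in 38.0% of all 35116 windows of the table, GGCGCC in 2 and in 16.4%, and ACGTG in 2 and in 18.5%. The ID3 window holds CAGAC and the ID1 window holds none of the 3 motifs. A match is only a string of letters and says nothing of binding, and its absence from these windows says nothing of sites elsewhere. Capitals mark the motif.

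ID3 promoter, chr1:23559502-23559751, minus strand: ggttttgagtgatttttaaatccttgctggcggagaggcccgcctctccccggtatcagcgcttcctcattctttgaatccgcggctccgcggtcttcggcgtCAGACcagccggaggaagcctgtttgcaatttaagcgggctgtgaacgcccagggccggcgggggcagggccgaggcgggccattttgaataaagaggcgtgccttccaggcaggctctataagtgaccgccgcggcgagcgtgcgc

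ID1 promoter, chr20:31605039-31605288, plus strand: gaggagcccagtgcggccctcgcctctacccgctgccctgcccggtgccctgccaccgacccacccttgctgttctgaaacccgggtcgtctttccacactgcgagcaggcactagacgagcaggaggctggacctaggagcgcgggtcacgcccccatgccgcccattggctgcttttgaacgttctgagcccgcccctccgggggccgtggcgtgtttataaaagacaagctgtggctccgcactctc

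ID2, which also belongs to the ID genes, was measured by 2 probes, a coding one and one in the 3' part of the transcript, and showed the widest spread between control tumors of any member. The 3' probe read 8.36, 7.81 and 6.03 in control tumors and 6.85, 6.33 and 6.71 in DFX-treated tumors. The coding probe read 7.30, 6.49 and 5.78 and then 6.39, 5.78 and 6.26. Both probes put the tumors in the same order, with control replicate 1 highest and control replicate 3 lowest, and the DFX values lay inside the control range on both. The log2 fold changes were -0.77 (SE 0.59, 95% interval -2.21 to 0.68, adjusted p = 0.739 in limma) and -0.38 (SE 0.40, adjusted p = 0.805). With 1 tumor left out the 3' probe gave -1.45 to -0.29. It passed only without control replicate 3 (-1.45, unadjusted p = 0.00198 in limma) and was smallest without control replicate 1 (-0.29), so the highest and the lowest control tumor moved the value in opposite directions.

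The coding ID2 probe runs from base 529 of the transcript over 389 genomic bases on hg19 (chr2:8822642-8823030, plus strand), so it crosses an intron and can report spliced RNA. It is shown with its in-frame stop codon in capitals, because it ties this signal to the coding end of ID2.

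ID2 coding probe: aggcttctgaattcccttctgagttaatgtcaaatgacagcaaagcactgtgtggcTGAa

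ID4 was close to the limit of measurement. Its log2 values were 3.72, 4.78 and 4.04 in control tumors and 2.95, 1.89 and 3.24 in DFX-treated tumors. The groups did not overlap and DFX tumors read lower, but 2 of 3 control arrays and no DFX array were well above background, so that no fold is given. The 3 DFX arrays had a lowest signal well above background of 4.12 to 4.69, and lay under it. Without the filter on dim probes ID4 passed in limma (unadjusted p = 0.0224, adjusted p = 0.584). That test takes the DFX values under this limit as they stand.

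Among the BMP ligands, BMP7, which drives kidney and bone development, had 3 probes that did not read the same. The probe at transcript base 3523 (A_23_P154643) was 11.24, 10.81 and 11.04 in control tumors and 10.70, 10.76 and 10.54 in DFX-treated tumors, with a gap of 0.056 between the groups. The control mean was 11.03 ± 0.21 and the DFX mean 10.67 ± 0.11 (SD, n = 3 each), a log2 fold change of -0.37 (SE 0.15, 95% interval -0.72 to -0.01, unadjusted p = 0.0452, adjusted p = 0.585 in limma), a change of -22.4% on the linear scale. The coding probe at base 985 read 7.78, 7.87 and 7.67 and then 7.63, 7.52 and 6.82, also without overlap, but its log2 fold change of -0.45 did not pass (SE 0.23, 95% interval -1.02 to 0.11, adjusted p = 0.644). That value was -0.20 without DFX replicate 3 and -0.61 without DFX replicate 1. The brightest probe, at base 2225, read 13.46, 12.94 and 13.44 and then 13.34, 13.26 and 13.23. There the groups overlapped, the log2 fold change was -0.01 and its interval ran from -0.42 to 0.40. DFX replicate 3 was the lowest DFX-treated tumor on all 3 probes. Whether the probes differ from each other was not tested. The call of the probe at base 3523 was lost without any 1 of control replicates 1 and 3 and DFX replicates 1, 2 and 3, when its log2 fold change was -0.41 to -0.26.

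The coding BMP7 probe (chr20:55803380-55803439 on hg19, minus strand) is printed as the one of the 3 that lies within the reading frame. The other two lie on the same strand at chr20:55743791-55743844 and chr20:55745555-55745614. The first of these is the probe with the call (A_23_P154643), and its 60 bases are placed on only 54 genomic bases.

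BMP7 coding probe: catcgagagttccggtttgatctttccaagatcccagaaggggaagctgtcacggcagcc

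BMP4, a ligand of epithelial and mesenchymal development, and BMP2, which acts in bone and heart formation, did not pass. BMP4 read 6.93, 7.28 and 6.75 in control tumors and 7.50, 7.23 and 7.33 in DFX-treated tumors. The DFX tumors were all above the control mean and 2 of the 3 were above every control, with a log2 fold change of 0.37 (SE 0.17, 95% interval -0.05 to 0.78, adjusted p = 0.623 in limma). With 1 tumor left out it was 0.25 to 0.51, and it passed only without control replicate 2 (0.51, unadjusted p = 0.0176 in limma). BMP2 read 11.18, 11.27 and 10.80 and then 10.79, 10.80 and 11.36. DFX replicate 3 held the highest value and the other two DFX tumors the lowest, and the log2 fold change was -0.10 (SE 0.21, 95% interval -0.62 to 0.42).

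**Figure D3:**
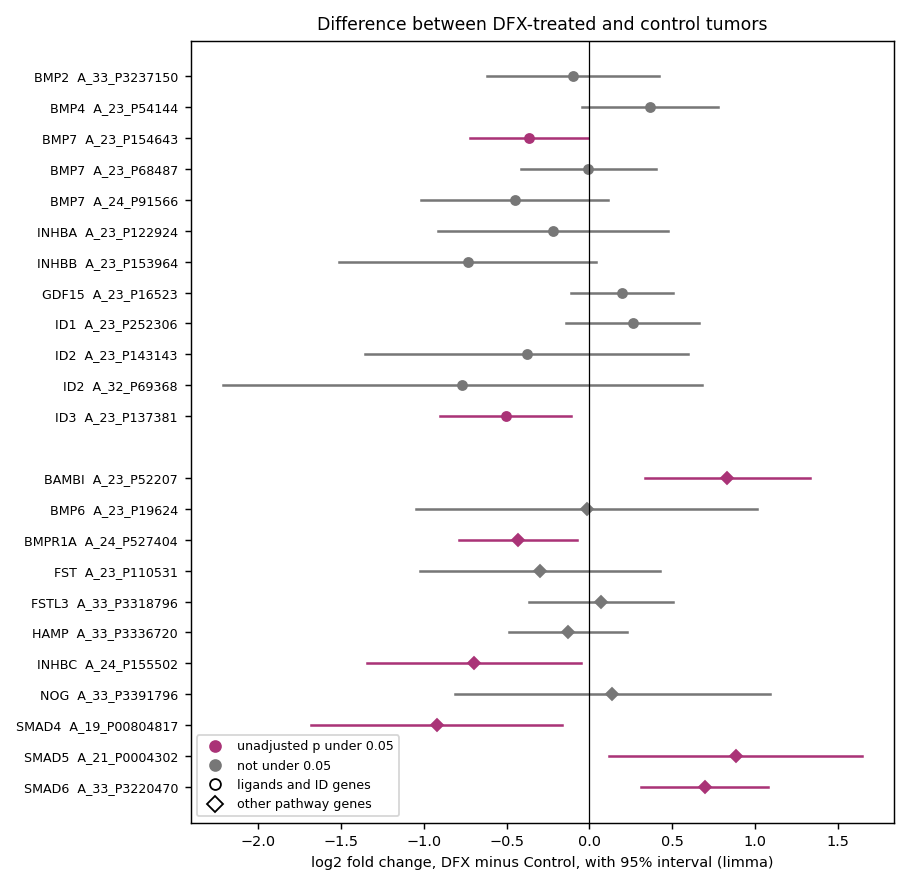
Limma log2 fold changes (DFX minus control, horizontal axis) with 95% intervals for the 12 tested member probes (circles) and 11 probes of other pathway genes (diamonds), colored where the unadjusted p was under 0.05. BMP7 at base 3523 and ID3 have intervals below 0, those of INHBB, BMP4 and ID1 include it, and the values of SMAD4, SMAD5 and BMP6 lie near background.

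The activin subunit genes INHBA and INHBB encode the chains of activin A and activin B. INHBB read 8.09, 8.69 and 8.54 in control tumors and 7.31, 7.44 and 8.36 in DFX-treated tumors. DFX replicates 1 and 2 were below every control, and DFX replicate 3 was between control replicates 1 and 3. The log2 fold change of -0.73, the largest of the ligands, did not pass (SE 0.32, 95% interval -1.51 to 0.04, unadjusted p = 0.0601, adjusted p = 0.609 in limma). With 1 tumor left out it was -1.06 to -0.54. It passed without DFX replicate 3 (-1.06, unadjusted p = 0.0041 in limma) and without control replicate 1 (-0.91, unadjusted p = 0.0478), and did not pass without any 1 of the other tumors (-0.68 to -0.54).

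INHBA was printed 10 times on each array, which gives the error between spots of 1 array. It read 9.59, 9.42 and 9.00 in control tumors and 8.65, 9.07 and 9.63 in DFX-treated tumors. The SD over the 9 or 10 usable spots of an array was 0.046 to 0.094, while the SD over tumors was 0.30 in controls and 0.49 with DFX. The spot SD holds no labeling, hybridization or array error, which the SD over tumors holds as well, so the 2 SDs do not measure how far the tumors themselves differ. The lowest and the highest values both belonged to DFX-treated tumors. The log2 fold change was -0.22 (SE 0.28, 95% interval -0.91 to 0.47, adjusted p = 0.841 in limma). It was 0.011 without DFX replicate 1. Fibroblasts are another source of activin A, and the summed log2 level of 8 fibroblast markers was 13.75 to 14.48 in control tumors and 13.64 to 13.94 in DFX-treated tumors. These ranges overlapped, and COL1A1 made up the largest part of the sum, taken on the linear scale. In that list DCN (-1.30) and PDGFRA (-1.12) passed as lower and LUM (0.87) as higher. COL1A1 (-0.09), COL1A2 (-0.34), THY1 (-0.30) and COL3A1 (1.04) did not pass, and PDGFRB was well above background on no array. None of the 5 tested leukocyte markers passed. The part of fibroblasts in the INHBA and INHBB values was not tested.

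**Figure D4:**
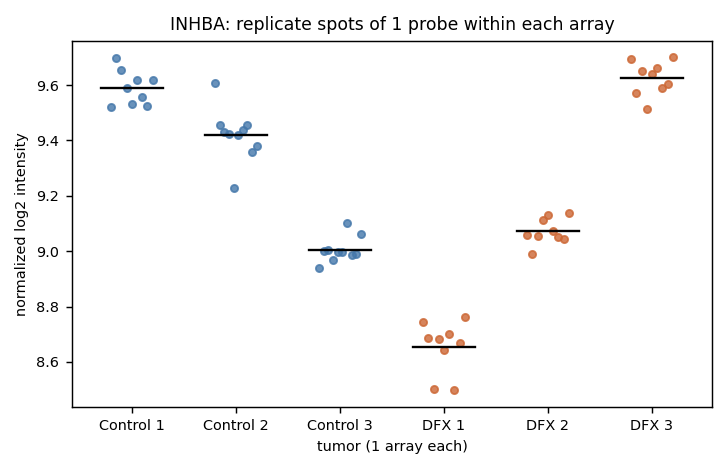
Log2 intensity of each usable INHBA spot (points) by tumor, with the array mean. Spots of 1 array lie close together, from 8.50 to 8.76 in DFX replicate 1 and from 9.52 to 9.70 in DFX replicate 3.

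GDF15, a stress-induced member of the superfamily that acts on the hindbrain receptor GFRAL, was 13.70, 13.86 and 13.61 in control tumors and 13.81, 13.88 and 14.07 in DFX-treated tumors. DFX replicates 2 and 3 were above every control and DFX replicate 1 was not. The log2 fold change was 0.20 (SE 0.13, 95% interval -0.11 to 0.50, adjusted p = 0.700 in limma). GFRAL itself was well above background on no array.

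A further 68 genes of the pathway were listed, of which 66 were on the array and 52 were tested. Of these, 6 (11.5%) had a probe at an unadjusted p under 0.05, 3 lower and 3 higher, against 10.8% of all tested genes, and none passed after adjustment. Their median log2 fold change by brightest probe was -0.04. BAMBI and SMAD6, both inhibitors of BMP signaling and BMP targets in many cells, were the 2 genes that passed in the higher direction on a probe well above background in every tumor. BAMBI, a pseudoreceptor, read 8.80, 9.26 and 8.54 in control tumors and 9.57, 9.81 and 9.72 in DFX-treated tumors. SMAD6, which blocks BMP SMADs, read 9.37, 9.74 and 9.51 and then 10.16, 10.45 and 10.09. In both genes every DFX-treated tumor was above every control tumor. The log2 fold changes were 0.83 (SE 0.20, unadjusted p = 0.0063, adjusted p = 0.514) and 0.70 (SE 0.16, unadjusted p = 0.0042, adjusted p = 0.513) in limma.

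The other calls were less firm. INHBC, a liver inhibin subunit, was -0.69 (SE 0.26, unadjusted p = 0.0391 in limma), and the call was lost without any 1 tumor except DFX replicate 3, when the log2 fold change was -0.75 to -0.44. It was also lost with 75th percentile scaling (-0.60), without the filter on dim probes, without moderation and with normexp background correction (-0.21), while the raw mean signal gave -0.23 and kept it. BMPR1A, a type I BMP receptor, had a call on 1 of its 5 probes (-0.43), while the brightest was -0.05. That call did not hold when control replicate 1 (-0.45), control replicate 3 (-0.32) or DFX replicate 2 (-0.35) was left out, and the value was -0.23 with normexp and -0.19 from the raw mean signal. For SMAD4, 2 control arrays and 0 DFX arrays gave a signal well above background, and with DFX the probe was lower by a bound of at least 1.16-fold. Its call was lost without control replicate 1 or 2 or DFX replicate 1 or 3, without moderation, and with the raw mean signal (-0.14), and normexp gave -0.23 against the reported -0.92. The other SMAD4 probes did not pass the detection filter, one of them being well above background on 1 array and the other on none. SMAD4 is the gene that BxPC-3 is known to have lost, and where this weak signal came from was not tested. The SMAD5 probe that passed was well above background on no array and its call was lost without any 1 tumor except DFX replicate 3, without moderation, with normexp and with the raw mean signal, while the brightest SMAD5 probe was -0.10. Among genes that did not pass, the log2 fold change was -0.13 for HAMP, which encodes hepcidin, 0.15 for SMAD1 and -0.05 for SMAD7. BMP6 was well above background on no array. The antagonists NOG and FST were 0.14 and -0.30. FST passed without control replicate 1 (-0.63, unadjusted p = 0.0061 in limma) and was -0.10 without control replicate 3. None of the 8 other BMP target genes and none of the 3 E protein partners of ID proteins passed. The share over all tested genes was 10.8%, and lists this short may hold no call at that share.

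**Figure D5:**
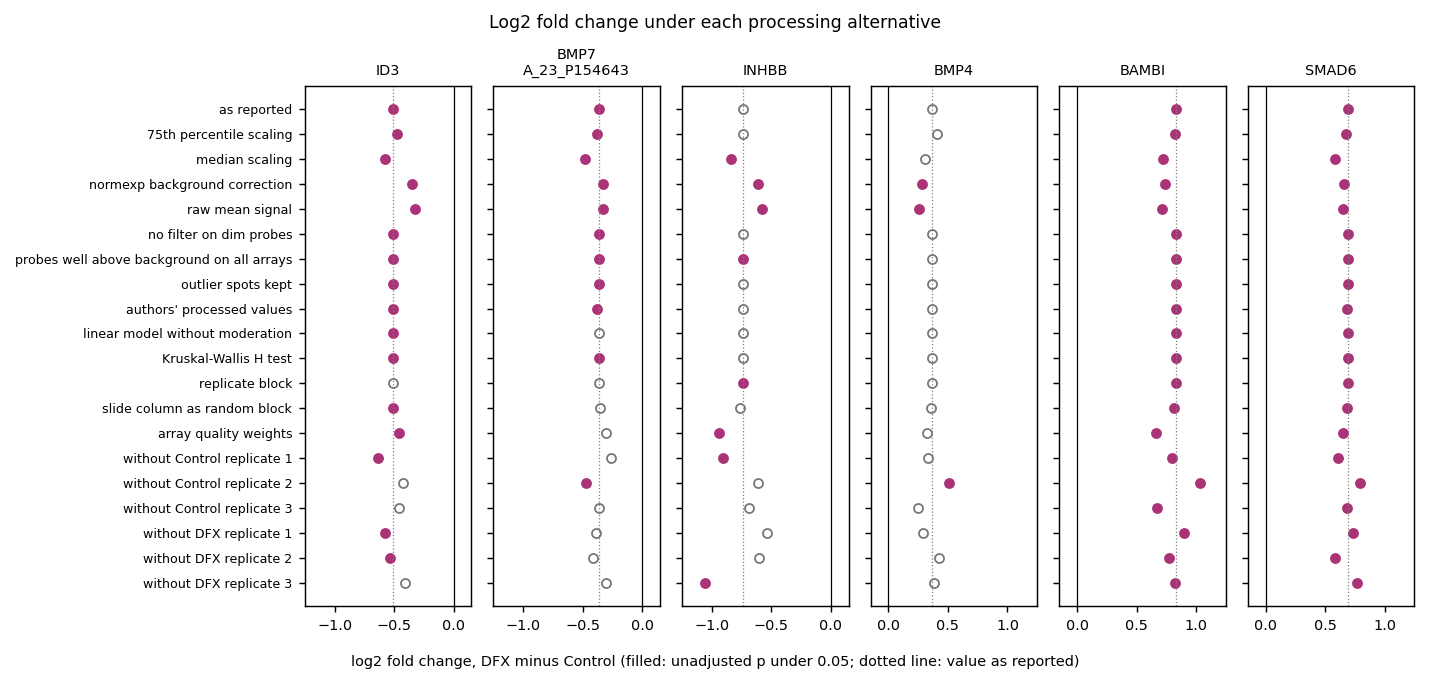
Log2 fold changes (DFX minus control, horizontal axis) of 6 genes as reported and under each processing alternative (rows), filled where the unadjusted p was under 0.05, with a dotted line at the reported value. The ID3 points run from -0.63 to -0.32 and those of BAMBI from 0.67 to 1.03, all on 1 side of 0.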

How the data were processed

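Arrays of 6 xenograft tumors were grouped by the sample labels. For every array the authors deposited a scanner file, made with Agilent Feature Extraction 10.7.1.1 per the file headers (9.5.1.1 in the submitters' processing notes), which hold intensities on a linear scale and a p-value of each spot against its background. They also deposited a table of processed intensities, used only as an alternative. Here the background-subtracted intensity was log2-transformed and quantile-normalized over 58717 non-control spots. The 1398 spot values flagged as outliers were left out and spots of a probe averaged. The 31807 of 50599 probes whose background p-value was under 0.05 in each of the 6 tumors were tested with limma 3.58.1 (lmFit, eBayes; R 4.3.3), unadjusted and with Benjamini-Hochberg adjustment over all of them. For animal experiments as a whole the methods give a Kruskal-Wallis H test, run here as an alternative, but they do not name the signal column or, for the arrays in particular, the test behind the threshold of 0.05. The limma step was run on simulated data with independent values and with shifts larger than most differences given here. That run does not measure the power for differences of this size. The number of arrays limits the precision.

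The members and gene lists were chosen with earlier results of these data known. Values are given for every member, and for pathway genes with a call or a named role. If no array of a group read a probe well above background, its fold is a bound against the lowest such signal on those arrays. Positions of probes come from the arrays' own hg19 annotation, and promoters are from RefSeq on GRCh38.p14. Labels do not say that tumors were paired, and deviations from group means of equally numbered tumors correlated by 0.016 to 0.027, so no block was used. Alternatives covered normalization, background, filters, flags, test, blocks, array weights, the probe rule and each tumor left out.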

Additional observations from a re-analysis of the deposited data

How the results depend on the processing

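BAMBI and SMAD6 passed the unadjusted threshold of 0.05 in all 19 alternatives with a test value, ID3 in 15 and the BMP7 probe at base 3523 in 10. INHBB and BMP4, which had not passed, did so in 8 and 3, and no member passed after adjustment in any setting. The number of member genes with a call, 2, was 4 with normexp background correction and with the raw mean signal. It was 1 with a linear model without moderation, with the slide column as a block and when a gene's probes were averaged. With 1 tumor left out it was 1 to 2, and no such run called BMP7 and ID3 together. With the replicate number as a block the member count was 1 (INHBB), but the labels do not say that equal numbers pair tumors. There ID3 (unadjusted p = 0.0514) and BMP7 at base 3523 (unadjusted p = 0.0797) did not pass in limma. The pathway count of 6 was 3 without moderation, 10 with the Kruskal-Wallis H test, 10 with array weights and 4 to 10 when 1 tumor was left out, the highest without DFX replicate 3. The count of 2675 probes became 4927 under the Kruskal-Wallis H test, which is the number of tested probes without overlap. It was 1889 to 2717 when 1 tumor was left out. Lower probes made up 58.8% of calls, 42.6% after scaling to the 75th percentile and 71.8% after median scaling, which moved the median of all probes to -0.10.

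Of 436 comparisons of a log2 fold change with its value under an alternative, 19 changed sign, all of differences that had not passed. BMP6 (-0.02) was 0.13 after scaling to the 75th percentile, 0.031 after median scaling, 0.028 from the raw mean and 0.090 with array weights, and -0.40 to 0.31 when 1 tumor was left out. FSTL3 (0.07) was -0.029 with median scaling, -0.033 with array weights and -0.061 to 0.25 when 1 tumor was left out. The brightest BMP7 probe was 0.0093 with the slide column as a block, 0.10 with array weights and -0.18 to 0.084 when 1 tumor was left out. With 1 tumor left out INHBA was -0.47 to 0.011, the coding ID2 probe -0.75 to 0.0088 and NOG -0.25 to 0.53. The causes were not tested. ID4, SMAD4 and SMAD5 lay near background, so depth of signal limits them.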
